A study of Mus musculus with 4 samples.

Results

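Genes of the potassium and calcium channel system of T cells were followed in CD4 T cells sorted from mouse large intestine. They were Kcna3, Kcna4, Kcnn4, Orai1, Orai2, Orai3, Stim1, Stim2, Itpr1 and Atp2b4, a list of 10 among 18194 genes on the array. The list was drawn up with results of these same arrays in view, and its members were in part chosen by the GFP-positive minus GFP-negative difference measured here, as for Kcna4, so the members' differences are given as descriptions without a test. Of the 10, 9 had probe sets assigned to a single gene symbol, 15 probe sets in all, and Itpr1 was not analysed here. Of these 9 genes, 6 had more than 1 probe set. The brightest probe set, by its mean on the log2 scale over the 4 arrays, comes first for each gene.

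The cells were sorted from lamina propria, the connective tissue under the gut epithelium, of animals on a mixed 129/B6 background. All of them were heterozygous for a GFP knock-in at Gpr15, the gene of a chemoattractant receptor that guides T cells to the large intestine, so both groups carried 1 intact copy of it and GFP reported its expression. CD4 T cells negative for GFP (GPR15negative) were compared with CD4 T cells positive for GFP (GPR15positive), with 2 Affymetrix arrays in each group, numbered replicate 1 and replicate 2. The labels give no treatment, age or sex and do not say how many mice gave a sample. The 2 arrays of a group differed in sex-linked RNA, so their spread holds a difference between animals and may in part be technical.

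T cells that meet antigen open calcium channels in the plasma membrane once the calcium store of the endoplasmic reticulum has been emptied through inositol trisphosphate receptors such as Itpr1. STIM proteins sense the emptied store and open ORAI pores, and potassium channels keep the membrane potential negative, which holds up the inward drive on calcium. Raised calcium activates calcineurin and the NFAT transcription factors, while pumps of the SERCA and PMCA families clear calcium back into the store or out of the cell. In T cells the voltage-gated channel Kv1.3 (Kcna3) and the calcium-activated channel KCa3.1 (Kcnn4) are the best known potassium channels.

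The sort and the purity of the fractions bear on every value. Gpr15 had signals of 146 and 162 in the GFP-negative samples, against 619 and 729 in the GFP-positive samples. Of 10 CD4 T cell identity genes 9 were measured, all 9 above the filter for dim genes, and their summed signal was 15899.8 to 16023 in GFP-negative and 13451 to 14605 in GFP-positive cells. The 4 regulatory T cell markers summed to 7083 to 7108 and 9705 to 11352. Most of that sum came from Ikzf2, at 2661 and 2526 against 4364 and 3833, and Ctla4, at 3925 and 4149 against 5598 and 4481. The dimmer Foxp3 was at 76.6 and 72.2 against 441 and 472, and Il2ra at 445 and 336 against 950 and 919. GFP-positive replicate 1 stood apart by its epithelial genes (10 of 10 measured, 7 above the filter). Their sum was 2687 there, 569 on GFP-positive replicate 2 and 667 to 737 in GFP-negative cells. Epcam, at 72.3 and 42.5 against 246 and 175, and Krt18, at 38.2 and 50.6 against 225 and 76.5, were higher on both GFP-positive arrays. On GFP-positive replicate 2 Krt8, Krt20, Cdh1, Muc2, Car1 and Zg16 lay below both GFP-negative arrays, and Vil1 and Fabp2 between them. GFP-positive replicate 2 stood apart by its myeloid genes (10 of 11 measured, 6 above the filter), whose sum was 1453 there, 300.2 on GFP-positive replicate 1 and 215 to 359 in GFP-negative cells. Of that 1453, C1qb gave 700.4. Csf1r, at 7.73 and 10.7 against 35.5 and 163.6, was higher on both GFP-positive arrays, as were Itgam, Fcer1g, Cd68, C1qa and C1qc. On GFP-positive replicate 1 Lyz2, Cd14 and C1qb lay between the GFP-negative arrays, and Adgre1 below both. No marker was listed at 0. Markers of enteric neurons and glia (6 of 8 measured) summed to 127 to 136 and 158 to 171, those of stroma, smooth muscle and endothelium (10 of 10) to 552 to 1134 and 715 to 1006, and those of mast cells (6 of 6, only Kit above the filter) to 147 to 158 and 227 to 319. Kit had signals of 64.4 and 26.5 against 98.1 and 270.3, while Mcpt1 was at 22.1 and 27.1 against 5.99 and 4.51. The B and plasma cell genes (8 of 9, 7 above the filter) summed to 4074 to 4752 and 4522 to 6584, highest on GFP-positive replicate 1 and mostly from Jchain, and the CD8 T cell genes (2 of 2, 1 above the filter) to 61.4 to 76.9 and 64.4 to 84.7. The replicate numbers also separated sex-linked genes. Xist was at 4172 and 4313 for number 1 against 55.1 and 112 for number 2, and Eif2s3y at 18.9 and 5.08 against 2329 and 2177. Number 1 thus held RNA of female type and number 2 of male type, and sex cannot be told apart from replicate number. Differences within each number are therefore given beside the pooled ones.

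Kcna4 was the member that differed most. It encodes Kv1.4, a voltage-gated potassium channel of the Shaker family that inactivates quickly and is best known from heart and brain. Its brighter probe set had signals of 17.0 on both GFP-negative arrays and of 105 and 131 in the GFP-positive samples, a mean of 17.0 ± 0.013 against 118 ± 18.2 (SD, n = 2 each). The GFP-negative level lay under the signal of 27.3 at which dim genes were filtered out, so Kcna4 entered the fit across genes only through the GFP-positive samples, and no fold is given against that level. Both GFP-positive arrays lay far above both GFP-negative arrays. On the scale of log2(signal + 16), used for all log2 differences here, GFP-positive minus GFP-negative cells differed by 2.01, by 1.87 within replicate 1 and by 2.15 within replicate 2. The addition of 16 damps differences between dim signals.

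The other probe set of Kcna4, which the platform annotation ties to the gene's RefSeq transcript, did not show this. It had signals of 40.4 and 45.2 in the GFP-negative samples, against 35.8 and 49.8 in the GFP-positive samples. The groups overlapped, the log2 difference was -0.01, and the differences within the numbers were -0.12 and 0.10. Which part of the transcript each probe set reads was not examined here, so the difference of Kcna4 belongs to 1 of its 2 probe sets. Averaged over both, the log2 difference was 1.0.

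Kcna3, the gene of Kv1.3, had 1 probe set and was dim. Its signals were 16.9 and 23.0 in the GFP-negative samples, against 37.1 and 48.7 in the GFP-positive samples, 20.0 ± 4.31 against 42.9 ± 8.21 (SD, n = 2 each). The groups did not overlap, and the log2 difference was 0.71, with 0.69 and 0.73 within the numbers. Like Kcna4, it passed the filter for dim genes only through the GFP-positive samples. It was smaller under every other scaling of the arrays, at 0.50 with quantile normalization, 0.48 with cyclic loess and 0.51 with median scaling, and stayed above 0.

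Kcnn4, the gene of KCa3.1, was lower in GFP-positive cells in both of its probe sets. The brighter one had signals of 573 and 849.9 in the GFP-negative samples, against 438 and 450.5 in the GFP-positive samples, 711 ± 196 against 444 ± 9.01 (SD, n = 2 each). The groups did not overlap, but the GFP-negative arrays differed from each other by 0.56 on the log2 scale, close to the group difference of -0.63. The differences within the numbers were -0.38 and -0.89, and without GFP-negative replicate 2 the difference was -0.36. The dimmer probe set had signals of 86.9 and 64.1 against 60.9 and 35.8, a log2 difference of -0.52, again without overlap.

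**Figure D1:**
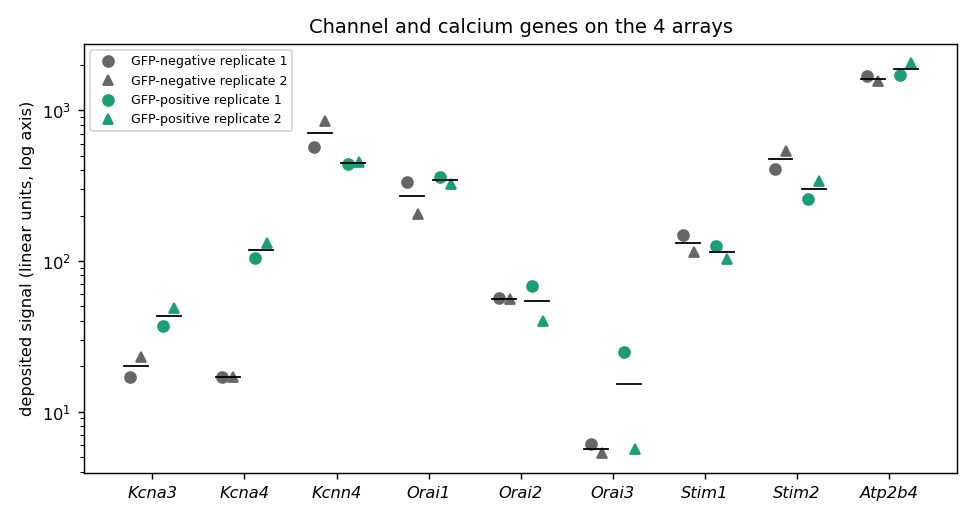
Deposited signal of the brightest probe set of the 9 members on each array (log axis, linear units), with circles for replicate 1, triangles for replicate 2, grey for GFP-negative, green for GFP-positive and black bars for group means; levels of different genes are not comparable because probe sets differ. Kcna4 lies at 17.0 on both GFP-negative arrays and at 105 and 131 in the GFP-positive samples, Kcna3, Kcnn4, Stim2 and Atp2b4 also do not overlap, and Orai1, Orai2, Orai3 and Stim1 do.

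The STIM sensors of the endoplasmic reticulum came next. Stim2, the more sensitive of the pair, which guards resting store calcium, had signals of 407 and 537 in the GFP-negative samples, against 257 and 342 in the GFP-positive samples in its brighter probe set, 472 ± 91.9 against 299 ± 60.1 (SD, n = 2 each). The groups did not overlap, and the log2 difference was -0.63, with -0.63 within each number. Its dimmer probe set went the other way without overlap, at 87.0 and 103 in GFP-negative and 125 and 109.7 in GFP-positive cells, which differed by 0.27 on the log2 scale. The mean over both probe sets differed by -0.18, so the size of the Stim2 difference rested on the choice of probe set.

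Stim1, the sensor that carries most store-operated entry in T cells, had signals of 147 and 115 in the GFP-negative samples, against 126 and 104 in the GFP-positive samples, and the groups overlapped. Its log2 difference was -0.17, smaller than the gap of 0.32 between the GFP-negative arrays. A second probe set, at 87.0 and 112 against 72.3 and 74.5, differed by -0.36 without overlap.

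ORAI proteins form the pore itself. Orai1, the principal pore subunit of T cells, had signals of 331 and 206 in the GFP-negative samples, against 362 and 323 in the GFP-positive samples. The groups overlapped, and the log2 difference of 0.37 was smaller than the gap of 0.65 between the GFP-negative arrays. Without GFP-negative replicate 1 it was 0.69 and without GFP-negative replicate 2 it was 0.04. The dimmer probe set of Orai1 had signals of 80.3 and 50.6 against 107 and 91.3, a log2 difference of 0.52 without overlap.

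Orai2, a subunit that lowers the current of mixed channels with Orai1, had signals of 56.8 and 55.5 in the GFP-negative samples, against 68.0 and 39.8 in the GFP-positive samples. The GFP-positive arrays lay on both sides of the GFP-negative ones, and the log2 difference was -0.08, with 0.21 within replicate 1 and -0.36 within replicate 2. Its other probe set differed by 0.08. Orai3, a further pore subunit, was dim, and did not enter the fit across genes. It had signals of 6.05 and 5.27 in the GFP-negative samples, against 24.8 and 5.66 in the GFP-positive samples. Only GFP-positive replicate 1, where the epithelial sum was highest, was above the others for Orai3, and the part of epithelial RNA in that value was not tested. Without that array the log2 difference of Orai3 was 0.00.

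Atp2b4 encodes PMCA4, a plasma membrane pump that removes calcium from the cell. Its signals were 1689.6 and 1557 in the GFP-negative samples, against 1703 and 2043 in the GFP-positive samples, 1623 ± 93.7 against 1873 ± 240.4 (SD, n = 2 each). The groups did not overlap by a narrow margin, the log2 difference was 0.20, and the differences within the numbers were 0.01 and 0.39. Under median scaling the sign turned, to -0.12, so no direction holds for Atp2b4 over all scalings tried.

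**Figure D2:**
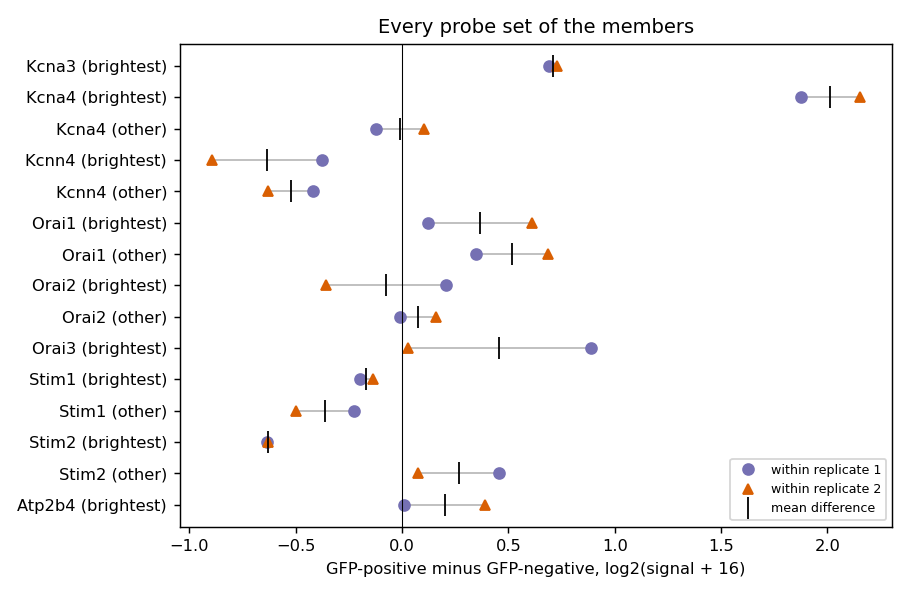
GFP-positive minus GFP-negative difference in log2(signal + 16) for all 15 probe sets of the members, within replicate 1 (circles), within replicate 2 (triangles) and as the mean (black ticks). The 2 probe sets of Kcna4 lie at 2.01 and -0.01 and those of Stim2 at -0.63 and 0.27, while both of Kcnn4 lie below 0 and both of Orai1 above 0.

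The counts over the list describe the members chosen, and nothing is read from them. Of the 9 measured members, 8 passed the filter for dim genes, 2 of them (Kcna3 and Kcna4) only through the GFP-positive samples, where they were higher. These 8 had a median log2 difference of 0.06, beside 0.07 over the 12253 tested genes. At a difference of at least 2-fold without overlap between the groups, Kcna4 was the 1 member counted as higher and 0 were lower, where 3.4% of tested genes were higher and 1.31% lower. Without regard to size, 5 of the 8 had groups that did not overlap, 3 higher (Kcna3, Kcna4, Atp2b4) and 2 lower (Kcnn4, Stim2), where 47.4% of tested genes did not overlap, 28.7% higher and 18.6% lower. In these bulk samples fewer cells expressing a gene and less RNA of it per cell cannot be told apart.

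The starts of the 4 members with the largest differences in the brightest probe set are shown as the 250 bases upstream of the RefSeq gene start (GRCm38.p6). By that probe set Kcna4 and Kcna3 were higher and Kcnn4 and Stim2 lower in GFP-positive cells. The other probe set was at -0.01 for Kcna4 and at 0.27 for Stim2. All 4 lie on the plus strand, Kcna4 at chr2:107290339-107290588, Kcna3 at chr3:107035912-107036161, Kcnn4 at chr7:24370013-24370262 and Stim2 at chr5:53998273-53998522. Capitals mark matches on either strand to the NFAT core GGAAA, the AP-1 motif TGANTCA, the RUNX motif TGTGGT or the forkhead motif TGTTTAC, and no match overlapped a match to another motif.
Kcna4: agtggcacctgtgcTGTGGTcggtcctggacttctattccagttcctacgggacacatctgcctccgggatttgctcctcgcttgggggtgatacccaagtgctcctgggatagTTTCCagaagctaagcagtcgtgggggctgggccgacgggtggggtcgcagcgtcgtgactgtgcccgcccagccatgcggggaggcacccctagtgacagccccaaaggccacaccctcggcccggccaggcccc
Kcna3: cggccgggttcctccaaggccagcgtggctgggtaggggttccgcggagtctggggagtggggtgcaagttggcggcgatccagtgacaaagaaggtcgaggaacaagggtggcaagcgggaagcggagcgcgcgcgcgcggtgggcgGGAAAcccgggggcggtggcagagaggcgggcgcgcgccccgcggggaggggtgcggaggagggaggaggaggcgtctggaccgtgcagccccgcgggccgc
Kcnn4: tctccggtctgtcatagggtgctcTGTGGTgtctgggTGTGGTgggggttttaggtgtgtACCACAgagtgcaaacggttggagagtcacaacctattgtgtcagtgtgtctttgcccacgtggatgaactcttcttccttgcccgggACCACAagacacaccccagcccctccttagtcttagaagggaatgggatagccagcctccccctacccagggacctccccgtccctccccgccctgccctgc
Stim2: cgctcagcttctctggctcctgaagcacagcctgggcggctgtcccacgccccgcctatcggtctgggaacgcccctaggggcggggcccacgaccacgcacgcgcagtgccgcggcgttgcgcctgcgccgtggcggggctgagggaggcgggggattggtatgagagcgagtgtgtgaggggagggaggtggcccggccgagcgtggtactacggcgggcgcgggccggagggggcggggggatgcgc
Kcna4 held 1 NFAT core and 1 RUNX match, Kcna3 held 1 NFAT core, Kcnn4 held 4 RUNX matches, and Stim2 held 0 matches. Of 32851 promoters cut to the same length, 55.6% held the NFAT core, 14% the RUNX, 6.7% the AP-1 and 3.2% the forkhead motif. The windows differed in base composition, with 65.2% G and C in Kcna4, 74.4% in Kcna3, 58.8% in Kcnn4 and 74.8% in Stim2, beside a median of 52.4%. A match is a string of letters and not a known binding site.

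Genes whose pattern over the 4 arrays was most like that of Kcna4 were sought as those at the smallest root-mean-square distance in log2(signal + 16), centred on the GFP-negative mean. Gpr15 itself was the nearest of the tested genes, at 0.05, with a log2 difference of 2.02. Tmbim1 followed at 0.091, with signals of 52.9 and 57.4 in the GFP-negative samples, against 219 and 282 in the GFP-positive samples, and Itgb8, an integrin chain that serves to activate latent TGF-beta, at 0.10, with 86.4 and 102 against 374 and 433. Foxp3, the lineage factor of regulatory T cells, had signals of 76.6 and 72.2 against 441 and 472, a log2 difference of 2.38. For Kcnn4, by its brighter probe set, the nearest genes were Rpf2 at 0.042, Slc44a2 at 0.055 and Eif2b4 at 0.059. Like that probe set, these were highest on GFP-negative replicate 2. The dimmer probe set of Kcnn4 was lower there, at 64.1 against 86.9 on GFP-negative replicate 1. Genes within a distance of 0.1 numbered 18 for Kcnn4 and 3 for Kcna4. Likeness over 4 arrays is a description, and Kcna4 had been picked for its group difference. The search used only the addition of 16 and the brighter probe set of Kcna4. That probe set differed by 2.71 with a pseudocount of 1 and by 1.16 with 64, and the other probe set by -0.01. Whether Gpr15 stays nearest under those settings was not tested.

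**Figure D3:**
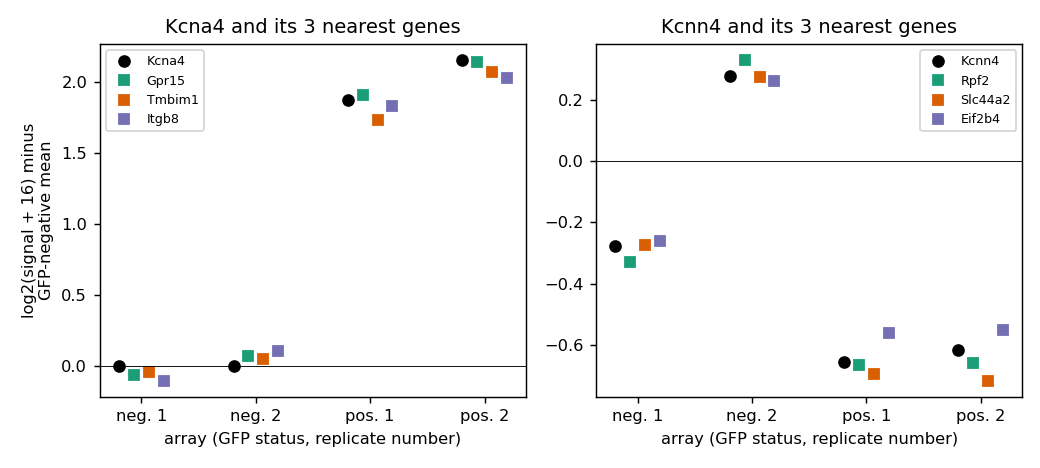
Log2(signal + 16) on each array minus the gene's GFP-negative mean, for Kcna4 (left) and Kcnn4 (right) as black circles with their 3 nearest genes as coloured squares, shifted sideways for visibility. Kcna4 and Gpr15 are 0.05 apart on average. The brighter probe set of Kcnn4, used here, shares with its neighbours a high value on GFP-negative replicate 2, which its dimmer probe set does not show.

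The rest of the pathway was read from 8 lists of 151 genes, of which 135 had a probe set and 100 were tested. Their median log2 difference was -0.01, beside 0.07 over all tested genes, and 48 of the 100 were above 0, beside 57.7% of all tested genes. In limma's moderated test 0 were called at an adjusted p under 0.05, where 0.0326% of all tested genes were, with a smallest adjusted p of 0.178. An unadjusted p under 0.05 was found for 18 of the 100, beside 14.6% of all tested genes. With a trended and robust variance, 1 was called, the chloride-proton exchanger gene Clcn3 at an adjusted p of 0.0446 in limma, where 1.97% of all tested genes were called. At 2-fold without overlap 3 were higher and 1 lower, 4.0% of the 100, beside 4.71% of all tested genes, and median scaling turned that balance to 2 higher and 4 lower. Of the 3 higher, Slc8b1 and Homer3 passed the filter for dim genes only through the GFP-positive samples, as did 5 of the 100 in all. Median scaling multiplies each array by 1 factor, and array medians were higher in the GFP-positive samples, at 46.0 and 45.2 against 37.0 and 36.1. It therefore lowers the difference of every gene by construction. For the 19 pathway genes named by the rule the drop was 0.20 to 0.32 on the log2 scale.

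Among 11 tested potassium channel genes 5 were higher and 2 lower without overlap, beside 28.7% and 18.6% of all tested genes. Kcna2, 1 of the 5, and Kcnab1 passed the filter for dim genes only through the GFP-positive samples. The median of the 11 was 0.21. That median turned to -0.02 with quantile normalization and cyclic loess and to -0.01 with median scaling. Kcnk6, a two-pore domain potassium channel known as TWIK-2, was the 1 past 2-fold. Its signals were 80.9 and 64.4 in the GFP-negative samples, against 152 and 292 in the GFP-positive samples, highest on the array with the highest myeloid sum, and the part of myeloid RNA was not tested. Kcnk6 differed by 1.37 (95% interval 0.53 to 2.20, limma adjusted p = 0.227), with 0.79 and 1.94 within the numbers. Kcnq5, a voltage-gated channel of the M-current family, was among the brightest of the list, at 183 and 287 against 119 and 146, and differed by -0.73 (-1.43 to -0.03, limma adjusted p = 0.335).

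Partner genes of store-operated entry gave 0 past 2-fold among 3 tested. Saraf, which inactivates store-operated entry by acting on STIM1, was bright and level, at 1740.3 and 1777 in GFP-negative and 1775 and 1591 in GFP-positive cells, and differed by -0.06 (-0.58 to 0.45). Asph, whose locus also encodes junctate, differed by 0.58 (-0.42 to 1.59), and its 6 probe sets ran from -0.99 to 0.76. Of 4 tested regulators of KCa3.1, 0 passed 2-fold. Nme2, a nucleoside diphosphate kinase that activates the channel by histidine phosphorylation, had signals of 1804 and 1869.8 against 1392 and 1317, a log2 difference of -0.44 (-0.94 to 0.07, limma adjusted p = 0.398). Mtmr6, a lipid phosphatase that inhibits the channel, differed by 0.02 (-0.51 to 0.56).

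Among 18 tested genes of calcium stores and extrusion the median was -0.02, and 1 passed 2-fold. This was Slc8b1, the sodium-calcium exchanger NCLX of mitochondria, with signals of 29.7 and 22.8 in the GFP-negative samples, against 70.3 and 98.1 in the GFP-positive samples. Slc8b1 differed by 1.24 (95% interval 0.63 to 1.84, limma adjusted p = 0.178), by 0.92 and 1.56 within the numbers, from a GFP-negative level under the filter. The brightest members were Calr, the calcium-binding chaperone calreticulin, at -0.11 (-0.69 to 0.47), and Tmbim6, a leak channel of the store, at -0.06 (-0.57 to 0.45). Mitochondrial uptake genes numbered 10 tested with a median of -0.15 and 0 past 2-fold. Their brightest, the outer membrane porins Vdac1 and Vdac2, differed by -0.08 (-0.60 to 0.44) and -0.15 (-0.67 to 0.36).

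The 22 tested genes of other cation and anion channels had a median of 0.16, which was 0.02 with quantile normalization and cyclic loess and -0.07 with median scaling, and 0 passed 2-fold. Clcn3 had signals of 1775 and 1944 against 2849 and 2836.5, a log2 difference of 0.61 (0.10 to 1.12, limma adjusted p = 0.296), which was 0.29 under median scaling. Lrrc8d, a subunit of the volume-regulated anion channel, differed by -0.07 (-0.62 to 0.47). Of 11 genes of inositol trisphosphate production and removal 0 passed 2-fold, and the median was -0.18. Plcg1, the phospholipase that T cell receptor signalling uses to produce inositol trisphosphate, had signals of 3817 and 3854 against 2895 and 2879.7, a log2 difference of -0.41 (-0.91 to 0.10, limma adjusted p = 0.420), and other probe sets of it reached 0.77, which gave a mean over its probe sets of 0.28. Itpkb, a kinase that consumes inositol trisphosphate, differed by -0.01 (-0.53 to 0.51).

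Downstream, 21 tested genes of calmodulin, calcineurin and NFAT had a median of -0.12. Nfatc1 and Nfatc3, the brightest, differed by -0.12 (-0.68 to 0.44) and 0.34 (-0.18 to 0.85), or by -0.43 and 0.02 under median scaling. Tesc, which encodes the EF-hand calcium-binding protein tescalcin, was the 1 gene lower by over 2-fold, with signals of 159 and 239 in the GFP-negative samples, against 53.5 and 95.9 in the GFP-positive samples. Tesc differed by -1.26 (95% interval -2.07 to -0.45, limma adjusted p = 0.238), by -1.33 and -1.19 within the numbers, and its other probe set by -0.41. Homer3, a scaffold protein of a family that competes with calcineurin for NFAT, was higher by over 2-fold, at 6.56 and 28.9 against 48.2 and 57.7, a difference of 1.11 (0.22 to 2.01, limma adjusted p = 0.278). The GFP-negative mean of Homer3 lay under the filter, and without GFP-negative replicate 1 its difference was 0.62.

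**Figure D4:**
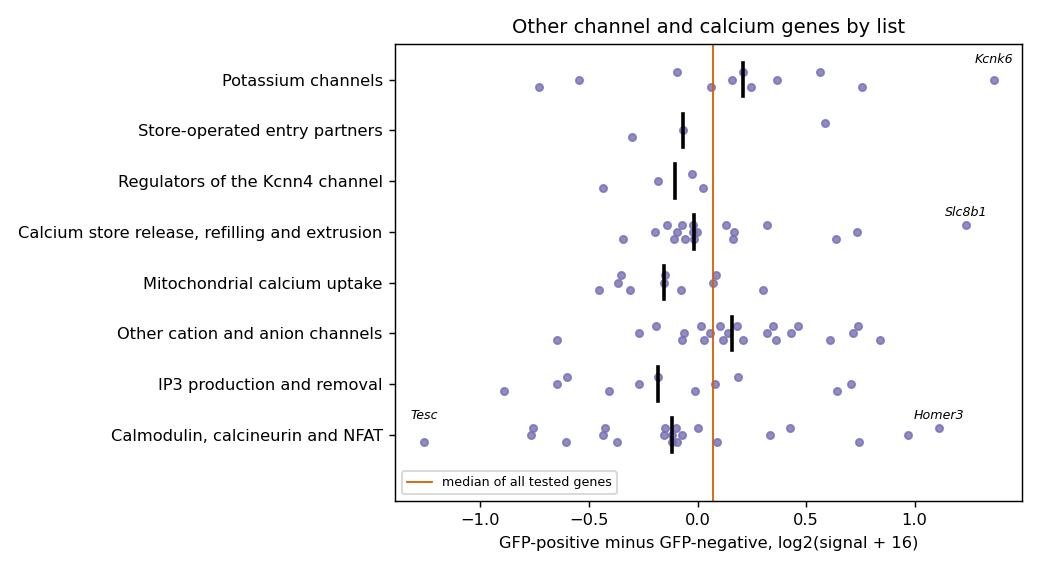
GFP-positive minus GFP-negative difference in log2(signal + 16) of each of the 100 tested pathway genes (points, stacked for visibility) by list, with list medians (black bars) and the median of all tested genes (orange line, 0.07). List medians lie between -0.18 and 0.21, and the named points are the 4 genes past 2-fold without overlap, Kcnk6, Slc8b1, Homer3 and Tesc.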

How the data were processed

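The deposited values are linear intensities, 1 per probe set and array, and how the authors computed them is not stated in the sources used here. RNA was Trizol-extracted and biotin-labelled, per the labels' protocols. The mean intensity after trimming 2% at each end was 150.0 on every array, while medians ran from 36.1 to 46.0, so the arrays had been scaled by 1 factor each and not quantile normalized. Deposited intensities were taken to log2 after adding 16. Of 45101 probe sets 34958 had 1 symbol in the platform annotation, which can be old, giving 18194 genes. The 12253 genes above the 40th percentile of probe sets, near a signal of 27.3, entered the test, each by its brightest probe set, two-sided, with limma 3.58.1 (lmFit, eBayes, group as the only term) in R 4.3.3, adjusted by Benjamini-Hochberg over all of them. The same fit gave the 95% intervals. The fit was run on simulated data with effects larger than most differences given here, so its recovery of smaller ones was not tested. Named pathway genes were those past the threshold, those past 2-fold without overlap and the 2 brightest per list. Members and lists were chosen with earlier results of these data known. Same-numbered arrays deviated together at a correlation of 0.198 over genes, and the labels do not say that they share mice.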

Additional observations from a re-analysis of the deposited data

How the results depend on the processing

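Kcna4, Kcna3 and Orai1 kept a positive difference and Kcnn4, Stim1 and Stim2 a negative one under the 10 alternatives run that could change a member's difference. Both other filters and the replicate block return the same value by construction. So does the mean of probe sets for Kcna3, Orai3 and Atp2b4, which have 1 probe set each. With a pseudocount of 1 the differences were 2.71 for Kcna4, 1.07 for Kcna3 and 0.98 for Orai3, and with 64 they were 1.16 for Kcna4 and 0.35 for Kcna3. Kcna3 was at 0.50 with quantile normalization and 0.48 with cyclic loess, where Kcna4 was at 1.80. Median scaling, which put the median of all genes at -0.20 from 0.07, gave 1.79 for Kcna4, 0.51 for Kcna3, -0.94 for Kcnn4 and for Stim2, -0.45 for Stim1 and -0.12 for Atp2b4. The mean of probe sets gave 1.0 for Kcna4 and -0.18 for Stim2. Without 1 array Kcna4 ran from 1.87 to 2.15, Kcna3 from 0.57 to 0.85, Kcnn4 from -0.91 to -0.36, Orai1 from 0.04 to 0.69, Orai2 from -0.37 to 0.22, Orai3 from 0.00 to 0.91, Stim1 from -0.32 to -0.01, Stim2 from -0.83 to -0.43 and Atp2b4 from 0.07 to 0.33. The 4 genes called by limma became 0 with a pseudocount of 1, with each of the 3 scalings, without the filter, with a replicate block and without any 1 array (range 0 to 0, where 1 residual degree of freedom is left and the lone sample is assumed to vary like the other group), at 1211 to 2189 genes with an unadjusted p under 0.05. They became 175 with a pseudocount of 64, 50 with a filter at the 60th percentile, 8 with the mean of probe sets and 241 with a trended and robust variance. The 577 genes past 2-fold without overlap became 1146 and 182 with pseudocounts of 1 and 64, 897 without the filter, 351 at the 60th percentile, 376 with the mean of probe sets, 265 with both within-number differences past 2-fold (the replicate block), and 759 to 932 without 1 array. The share of these that were higher went from 72.1% to 28.8% under median scaling, to 56.7% with quantile normalization and to 56.2% with cyclic loess. The 4 pathway genes past 2-fold became 7 and 1 with pseudocounts of 1 and 64, 2 at the 60th percentile, 1 under the replicate block, and 4 to 9 without 1 array; median scaling made them 2 higher and 4 lower. The 0 called became 1 with a trended and robust variance. The median over the pathway genes was -0.31 under median scaling, which lowers every difference by construction. The causes of the other changes were not tested. Having 2 arrays per group limits every value, and signals near 17.0, as for Kcna4 in GFP-negative cells, lie below the filter's 27.3.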

Other observations

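Several pathway genes that stayed under 2-fold differed in the same direction within both replicate numbers. They were chosen after their values were seen, and none passed limma's adjusted threshold. Each had groups that did not overlap, as had 47.4% of all tested genes. Other genes of the lists agreed as closely and are not detailed, such as Trpv1 with 0.75 and 0.73. Camk4, a calcium and calmodulin dependent kinase, had signals of 324 and 334 in GFP-negative samples, against 559 and 564 in GFP-positive samples, with differences of 0.76 and 0.73 within the numbers, while its 5 probe sets ran from -0.16 to 0.75. Lat, the membrane adaptor that recruits phospholipase C gamma after T cell receptor engagement, had signals of 641 and 786 against 355 and 397, with -0.82 and -0.96. Atp2b3, a calcium pump of the same family as Atp2b4, had signals of 41.1 and 31.6 against 77.7 and 64.3, with 0.72 and 0.76, and its other probe set differed by 0.33. P2rx7, an ATP-gated cation channel, had signals of 1832 and 1876 against 1039.9 and 1331, with -0.81 and -0.49, while its 3 probe sets ran from -0.73 to 0.20. Whether these differences recur in other samples was not tested.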
